A study of Rattus norvegicus with 6 samples.

Results

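The 8 secreted products of fat, here called the adipokine set, were followed in peripancreatic adipose tissue: leptin (Lep), adiponectin (Adipoq), visfatin (Nampt), chemerin (Rarres2), retinol-binding protein 4 (Rbp4), apelin (Apln), angiopoietin-like 4 (Angptl4) and lipocalin 2 (Lcn2). Members were all probe sets whose platform annotation gives exactly 1 gene symbol and whose symbol is one of these 8 genes, which found 10 of the 31042 probe sets that are not controls. Nampt and Apln have 2 probe sets each, and the other members have 1. The study took this visceral fat depot from 6 Wistar rats, an outbred strain. The 3 lean rats (14, 18 and 19) ate standard chow. The 3 obese rats (29, 32 and 42) ate an energy-rich cafeteria diet, given for 30 days per the series title. The sources used here state no age, sex or body weight, and each RNA sample was run on 1 Affymetrix rat array. Values are log2 expression levels per probe set, and a difference is the obese mean minus the lean mean on that scale. The arrays come from different rats by their numbers, and a p-value covers rat-to-rat spread plus whatever handling added.

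Adipokines are proteins that adipose tissue releases to act on itself or on distant organs. Leptin is made by adipocytes in step with their lipid stores and acts through the leptin receptor in the hypothalamus to restrain feeding. Adiponectin is among the most abundant adipocyte transcripts and acts through its receptors to favour insulin sensitivity and fatty acid oxidation, and its blood level is usually lower in established obesity. The other members carry vitamin A, attract immune cells, act on vessels, restrain lipoprotein lipase, make NAD or bind bacterial iron carriers, and several are also made by cells other than adipocytes.

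The sequence before the start site is shown for the 3 genes on which the results turn: Lep, with the largest difference of the set, Adipoq, the hormone most specific to adipocytes, and Angptl4, whose difference had the smallest p-value of the set. Each window holds the 250 bases before the annotated start, along the gene's strand, from RefSeq's GRCr8 assembly. They are chr4:58626288-58626537 on the plus strand for Lep, chr11:91240170-91240419 on the minus strand for Adipoq and chr7:15258682-15258931 on the minus strand for Angptl4. Capitals mark matches, on either strand, to a TATA box core (TATAA), the palindrome TTGCGCAA that C/EBP factors bind, a GC box (GGGCGG) or a CCAAT box (CCAAT).
Lep: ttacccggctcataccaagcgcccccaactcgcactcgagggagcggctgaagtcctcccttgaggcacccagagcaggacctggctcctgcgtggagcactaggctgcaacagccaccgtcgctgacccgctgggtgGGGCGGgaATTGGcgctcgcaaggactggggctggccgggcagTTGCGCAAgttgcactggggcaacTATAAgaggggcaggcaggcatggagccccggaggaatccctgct
Adipoq: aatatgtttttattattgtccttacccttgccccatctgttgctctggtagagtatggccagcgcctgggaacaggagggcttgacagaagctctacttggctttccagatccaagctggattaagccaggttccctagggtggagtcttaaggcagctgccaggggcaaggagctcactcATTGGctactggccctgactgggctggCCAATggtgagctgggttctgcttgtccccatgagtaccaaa
Angptl4: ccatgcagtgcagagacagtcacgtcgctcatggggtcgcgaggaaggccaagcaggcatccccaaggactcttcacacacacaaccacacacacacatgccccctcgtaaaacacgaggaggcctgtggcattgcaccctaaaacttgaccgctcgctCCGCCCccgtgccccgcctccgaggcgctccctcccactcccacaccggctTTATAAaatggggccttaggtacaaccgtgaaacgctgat
The Lep window holds all 4 motifs, with the GC box beginning 112, the CCAAT box 104, the C/EBP palindrome 69 and the TATA core 45 bases before the start. The palindrome occurs in 47 of 33469 RefSeq promoters of this length (0.14%) and, among the 7 members with a promoter entry, in Lep alone. In the Adipoq window there are 2 CCAAT boxes, at 69 and 42 bases, a motif found in 34.0% of promoters. Angptl4 has a GC box at 91 bases and a TATA core on both strands at 40 and 39 bases, where the matches overlap. GC boxes occur in 30.5% and TATA cores in 24.0% of promoters. A match describes letters in the window and not a bound site, and the arrays do not measure binding.

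The tissue carried its adipocyte markers. All 14 measured adipocyte markers outside the adipokine set lay above every array's upper quartile (7.45 to 7.51), the lowest of them the glucose transporter Slc2a4 at 8.98 to 9.61. Lean 14, lean 19 and obese 42 each stood apart in some markers. Lean 14 carried pancreatic acinar transcripts (mean of 11 markers 9.36, against 4.44 to 4.99 elsewhere). Obese 42, the 1 array whose label does not say that its sample had been analysed before, had the lowest macrophage level (mean of 8 markers 8.39, against 9.14 to 9.77 elsewhere) and the highest excess of 3' over 5' signal for the RNA quality controls (1.28, against 0.79 to 1.10), called the 3'-5' difference below. Lean 19 had the highest smooth muscle and pericyte level (mean of 8 markers 9.99, against 7.98 to 9.07), with Myh11 at 12.02 (9.04 to 10.57 elsewhere). All 8 of these markers had a lower mean on the obese arrays (median -0.91), 2 of them without overlap. Their mean on lean 18 (8.04) was itself at the obese level, below obese 29 (8.21) and obese 32 (8.11) and above obese 42 (7.98). Of 10 T and NK cell markers 9 were lower (median -0.60), 6 at an unadjusted p under 0.05 and 5 without overlap. Their mean was 5.56 to 6.0 in lean and 5.04 to 5.57 in obese rats. Of all 14217 genes taken by their brightest probe set, 6.13% were lower at an unadjusted p under 0.05 and 8.18% lower without overlap. All 3 B cell markers were lower too (median -0.42). The part of these cell types in the adipokine values was not tested. Between the groups the RNA measure differed by 0.12 (exact two-sided permutation p = 0.40, where the smallest p for 3 against 3 is 0.10). In bulk tissue, fewer cells of a type and less RNA per cell cannot be told apart.

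The obese rats were compared with the lean rats to ask whether this depot carries any adipokine transcript at another level after the cafeteria diet. Of the 10 probe sets, 0 passed limma's test at an adjusted p under 0.05, against 0.00966% of all probe sets (3 of 31042: Slc22a3 and probe sets of Ldb3 and RT1-Bb that are not the brightest of their genes, named after their values were seen). The members' adjusted p ran from 0.417 to 0.900. At an unadjusted p under 0.05 there was 1 higher member, Angptl4, against 6.5% of all probe sets higher, and 0 lower, against 5.33%. Obese and lean values did not overlap for 2 higher members, Adipoq and Rarres2, against 11.8% of all probe sets, and for 0 lower ones, against 7.02%. Of the 10 differences 6 were above 0, with a median of 0.10 against 0.020 over all probe sets.

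**Figure D1:**
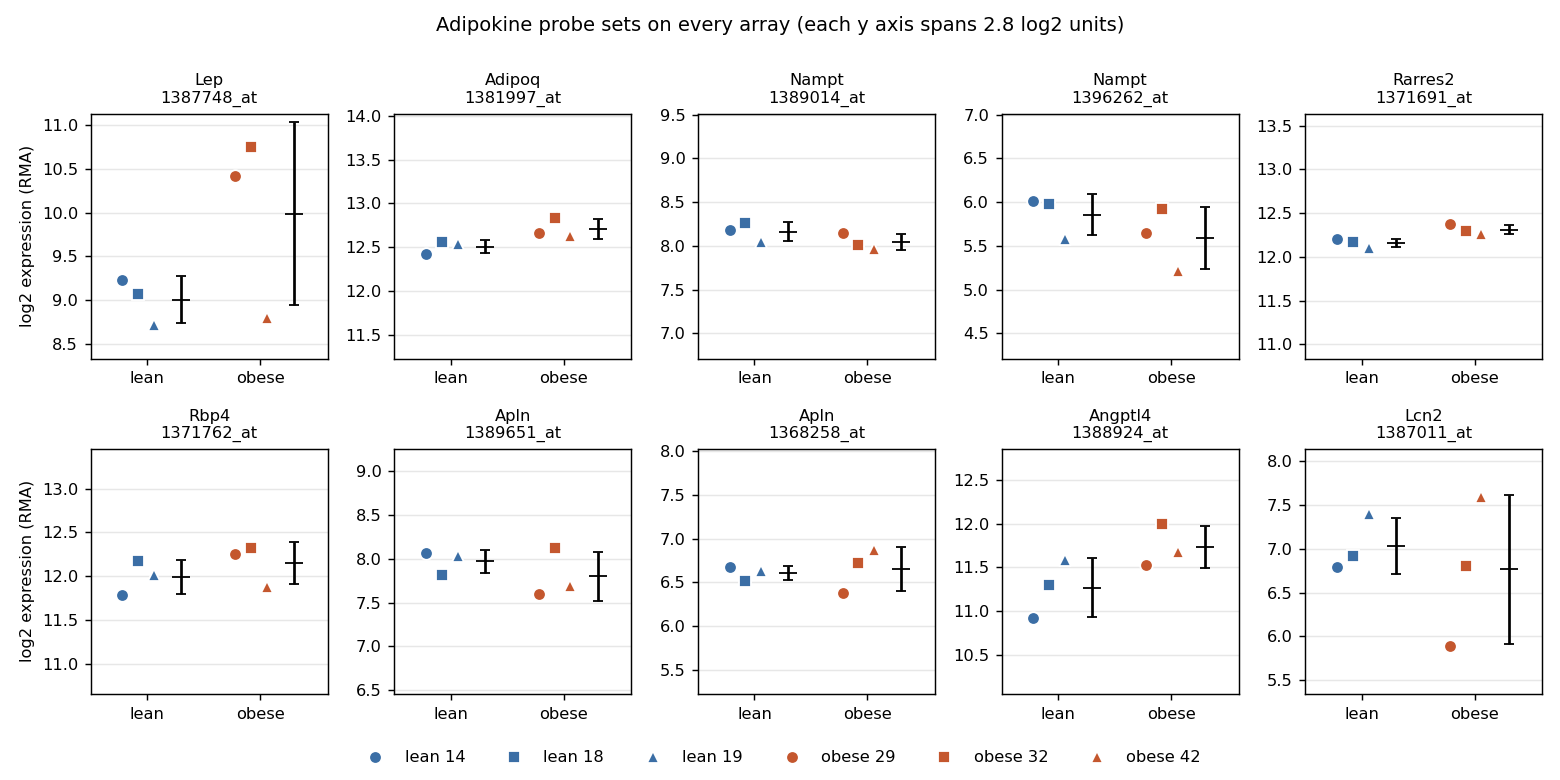
Log2 expression of the 10 adipokine probe sets on every array, blue for lean and orange for obese rats, with the group mean and SD (n = 3) as black bars to the right of the points; every y axis spans the same width. Lep and Lcn2 spread widely among the obese arrays (8.80 to 10.75 and 5.89 to 7.60), whereas Adipoq and Rarres2 stay within 0.20 and 0.11 there.

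Leptin transcript was high in obese rats 29 and 32 and at the lean level in obese rat 42. Its log2 level was 9.23 on lean 14, 9.07 on lean 18 and 8.72 on lean 19. On obese 29 it was 10.42, on obese 32 10.75 and on obese 42 8.80. The group levels thus overlap, because obese 42 lies below lean 14 and lean 18. Set against the lean mean, the transcript was 2.66-fold on obese 29, 3.35-fold on obese 32 and 0.864-fold on obese 42. The mean was 9.01 ± 0.26 (SD, n = 3) in lean and 9.99 ± 1.05 (SD, n = 3) in obese rats. The difference was 0.98 (SE 0.47, 95% interval -0.13 to 2.09), a 1.97-fold difference that did not pass (limma adjusted p = 0.462).

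In size and in spread Lep stood near the top of the whole table, a description and not a test. A larger absolute difference was seen for 0.548% of all probe sets, and a larger spread within groups (residual SD 0.76) for 0.554%, where the median residual SD was 0.14. The obese rats alone covered a 3.88-fold range, against 1.43-fold among the lean rats. Without obese 42 the Lep difference was 1.58 and just missed the threshold (limma adjusted p = 0.0518, 2 obese arrays), and without obese 32 it was 0.60 (adjusted p = 0.666). Leaving out obese 42 together with lean 14 gave 1.69 (adjusted p = 0.134). Obese 42 also had the low macrophage level and the high 3'-5' difference given above. With the macrophage level as a covariate, a fit added after the data were seen, the Lep difference was 1.83 (adjusted p = 0.165). With the 3'-5' difference as a covariate it was 1.48 (adjusted p = 0.163). Obese 42 is the extreme array on both covariates, so these fits are not independent of leaving that array out. Whether these properties of the array bear on its Lep value was not tested further. With the mean of the 14 adipocyte markers as a covariate the Lep difference was 0.98 (SE 0.91, limma adjusted p = 0.9999). That fit, described below for Adipoq, cannot tell the group and the adipocyte level apart.

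Other genes followed the same pattern over the arrays. Among 545 genes above the median level and with at least 0.5 times the SD of Lep over the 6 arrays, the nearest by root mean square difference of centred values were Sync (0.19), Akr1c3 (0.20), Cryab (0.28) and Cdc27 (0.34). Sync encodes syncoilin, an intermediate filament protein of muscle, Akr1c3 an aldo-keto reductase that acts on steroids and prostaglandins, Cryab a small heat shock protein and Cdc27 a subunit of the anaphase-promoting complex. Sync stood at 8.23 and 8.61 on obese 29 and 32 and at 6.58 to 6.74 on the other 4 arrays. Akr1c3 stood at 7.71 and 7.77 on those obese arrays, against 5.59 to 6.28 elsewhere. Cryab was at 10.91 and 10.74, against 9.33 to 9.61. The other probe set of Sync, at a mean of 7.23, differed by only 0.26, against 1.21 for the one above. It read 7.22, 7.11 and 6.99 on lean 14, 18 and 19 and 7.51, 7.37 and 7.20 on obese 29, 32 and 42. Its rise on obese 29 and 32 was thus far smaller. These genes were picked for their likeness over the same 6 arrays, so their values carry no test.

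**Figure D2:**
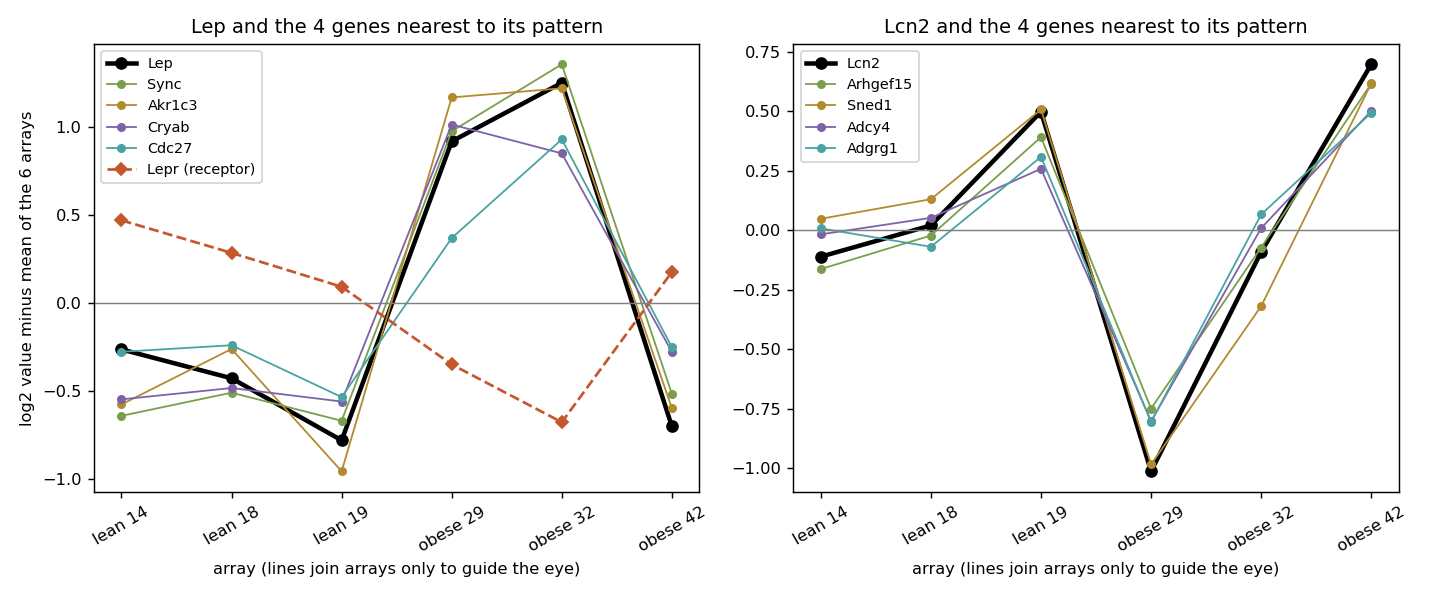
Log2 values minus the mean of the 6 arrays for Lep (left) and Lcn2 (right), each with the 4 genes whose centred values lie nearest to it, and for the leptin receptor Lepr (dashed, left). Lep, Sync, Akr1c3 and Cryab stand high on obese 29 and 32 only, Lepr is lowest on those arrays, and the Lcn2 group is lowest on obese 29.

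Adiponectin transcript was slightly higher on every obese array than on any lean array. It measured 12.42, 12.56 and 12.54 on lean 14, 18 and 19, and 12.66, 12.83 and 12.63 on obese 29, 32 and 42. The gap between the highest lean and the lowest obese array was 0.072. The mean went from 12.51 ± 0.073 (SD, n = 3) to 12.71 ± 0.11 (SD, n = 3), a difference of 0.20 (SE 0.094, 95% interval -0.020 to 0.42) that did not pass (limma adjusted p = 0.453). In fold terms this is 1.15-fold, with an interval from 0.986 to 1.34. Its values were thus even, with a larger residual SD for 76.0% of all probe sets, and small in size, with a larger absolute difference for 26.5%.

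Adiponectin and the general level of adipocyte genes had the same lowest and highest arrays. The mean of the 14 adipocyte markers, which leaves the adipokine set out, was 10.96, 11.23 and 11.25 on lean 14, 18 and 19 and 11.38, 11.57 and 11.45 on obese 29, 32 and 42. Both measures were lowest on lean 14 and highest on obese 32, but lean 18 against lean 19 and obese 29 against obese 42 ran in opposite order. The marker mean also did not overlap between the groups (difference 0.32). Of its 14 genes 13 were higher on the obese arrays, 6 of them at an unadjusted p under 0.05, against 7.2% of all genes. With that mean as a covariate, a fit added once the values were known, the Adipoq difference was 0.0089 (limma adjusted p = 0.9999). The covariate is close to the grouping itself, so in this fit the group and the adipocyte level cannot be told apart.

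**Figure D3:**
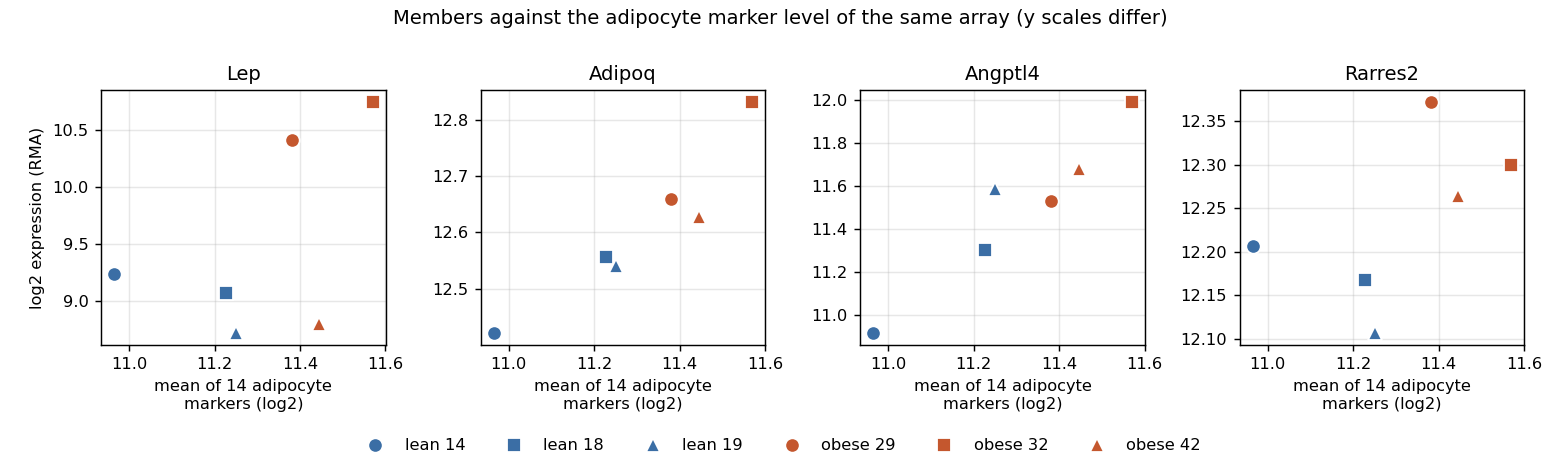
Log2 level of Lep, Adipoq, Angptl4 and Rarres2 (y axes, scaled separately) against the mean of 14 adipocyte markers on the same array (x axis), 1 point per rat. Adipoq and Angptl4 are lowest on lean 14 (10.96 on the x axis) and highest on obese 32 (11.57), while Lep on obese 42 lies at the lean level despite a marker mean of 11.45.

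Angiopoietin-like 4, which inhibits lipoprotein lipase and is induced by fasting and by fatty acids, had the smallest p-value of the set. Its level was 10.92 on lean 14, 11.30 on lean 18 and 11.59 on lean 19. It was 11.53 on obese 29, 11.99 on obese 32 and 11.68 on obese 42. The groups overlapped by a small margin, since lean 19 lay above obese 29. The difference was 0.46 (SE 0.19, 95% interval 0.013 to 0.92), a 1.38-fold difference with limma's unadjusted p = 0.0453 and adjusted p = 0.417. It rested partly on lean 14, the array with acinar transcripts: without that array the difference was 0.29 (adjusted p = 0.757), and without lean 19 it was 0.62 (adjusted p = 0.408). With the adipocyte marker mean as a covariate its sign turned, to -0.20 (SE 0.18, adjusted p = 0.9999). As for Adipoq, this fit was added once the values were known and cannot tell the group and the adipocyte level apart.

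Chemerin and retinol-binding protein 4 are both made by adipocytes, chemerin as a precursor of a ligand that draws in macrophages and dendritic cells, and retinol-binding protein as the blood carrier of vitamin A. Rarres2 stood at 12.21, 12.17 and 12.11 on lean 14, 18 and 19 and at 12.37, 12.30 and 12.26 on obese 29, 32 and 42. Each obese array was above each lean array, with a gap of 0.057. The difference was 0.15 (SE 0.081, 95% interval -0.039 to 0.34, limma adjusted p = 0.501), or 1.11-fold. Rarres2 was the most even member, with a larger residual SD for 95.5% of all probe sets. It did not share the low value on lean 14 that Adipoq, Angptl4 and Rbp4 had. Its difference was 0.24 (SE 0.15) with the adipocyte marker mean as a covariate (adjusted p = 0.9999). Here too that fit cannot tell the group and the adipocyte level apart.

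Rbp4 stood at 11.79 on lean 14, 12.17 on lean 18 and 12.01 on lean 19. Its obese values were 12.25, 12.32 and 11.87. Obese 29 and 32 lay above the lean arrays and obese 42 between them, the same order of obese arrays against lean ones as for Lep but far smaller. The difference was 0.16 (SE 0.15, 95% interval -0.20 to 0.51, limma adjusted p = 0.704). It turned to -0.16 with the adipocyte marker mean as a covariate, a fit that cannot tell the group and the adipocyte level apart. Without lean 14, where Rbp4 was lowest, the difference was 0.056, and without obese 42 it was 0.29 (adjusted p = 0.370).

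Apelin, a peptide that acts on vessels and the heart through its receptor Aplnr and is also made by endothelial cells, gave no common direction on its probe sets. The brighter one read 8.07, 7.82 and 8.03 in lean and 7.59, 8.12 and 7.69 in obese rats, a difference of -0.17 (SE 0.15, limma adjusted p = 0.682). On the dimmer one the lean values were 6.67, 6.51 and 6.63 and the obese values 6.38, 6.72 and 6.87, a difference of 0.050 (SE 0.14, adjusted p = 0.900). Obese 29 was lowest on both. The probe sets disagreed on obese 42, which was below the lean arrays on the brighter and above them on the dimmer one. The 95% interval of the brighter probe set ran from -0.53 to 0.19. Without obese 29 its difference was -0.067 and without obese 32 it was -0.33 (adjusted p = 0.503). All 8 endothelial markers were lower on the obese arrays (median -0.22), 0 of them without overlap, against 8.18% of all genes lower without overlap. The part of endothelial cells in the Apln values was not tested.

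Nampt, the enzyme that makes nicotinamide mononucleotide for NAD synthesis and that is also found outside cells, was lower on both of its probe sets without passing. The brighter one read 8.19, 8.26 and 8.05 in lean and 8.15, 8.01 and 7.97 in obese rats. Its difference was -0.12 (SE 0.096, limma adjusted p = 0.641). The dimmer one read 6.01, 5.97 and 5.58 in lean and 5.65, 5.92 and 5.21 in obese rats, a difference of -0.26 (SE 0.20, adjusted p = 0.623). Obese 42 was the lowest array on both, and the groups overlapped on both. Single arrays moved these values: the dimmer difference was -0.074 without obese 42 and -0.43 without obese 32, and the brighter one -0.074 without lean 18 and -0.18 without lean 19.

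Lipocalin 2, a protein of the innate defence that binds bacterial iron carriers and is made by adipocytes, neutrophils and epithelia, ranged widely among the obese rats. Its level was 6.79, 6.92 and 7.40 on lean 14, 18 and 19. It was 5.89 on obese 29, 6.81 on obese 32 and 7.60 on obese 42, which placed the obese rats at both ends of the scale. The obese range was 3.27-fold against 1.53-fold among lean rats, and the mean difference was -0.27 (SE 0.40, 95% interval -1.21 to 0.67, limma adjusted p = 0.811). Without obese 29 the difference turned to 0.17, without obese 42 it was -0.69 (adjusted p = 0.361), and without lean 19 it was -0.090. With the macrophage level, which was lowest on obese 42, as a covariate it was -1.05 (adjusted p = 0.165). That fit was added after the data were seen and is not independent of leaving obese 42 out. A larger residual SD was seen for 1.03% of all probe sets.

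The genes nearest to Lcn2 in pattern over the 6 arrays were Arhgef15 (root mean square difference 0.12), a guanine nucleotide exchange factor, Sned1 (0.13), a matrix glycoprotein, Adcy4 (0.16), an adenylate cyclase, and Adgrg1 (0.17), an adhesion receptor. The mean of 8 endothelial markers had its lowest value on obese 29 (8.27) and its highest on obese 42 (9.16), with 8.86 to 9.04 on the lean arrays and 8.75 on obese 32. The mean of 7 mesothelial markers was highest on obese 29 (9.76, against 8.80 to 9.37 elsewhere). Neutrophil markers, 9 of them measured, had a mean of 4.32 to 4.64, near the arrays' lower quartiles (4.41 to 4.49). Of the 9, 0 separated the groups, against 20.4% of all genes. The part of these cell types in the Lcn2 values was not tested. The genes nearest to Lcn2 were picked for their likeness over the same 6 arrays, so their values carry no test.

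**Figure D4:**
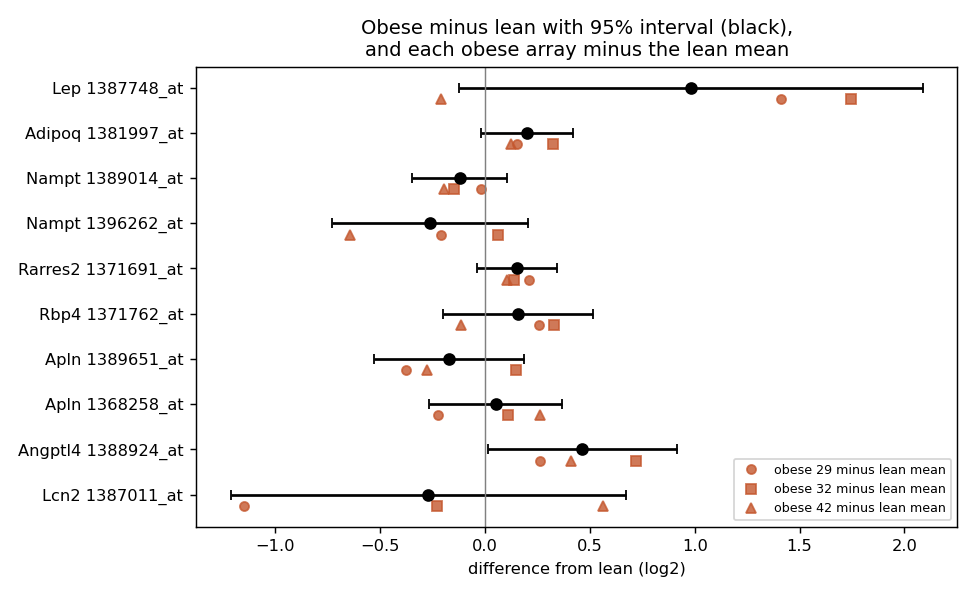
Obese minus lean difference (log2) of each adipokine probe set with its 95% interval from limma (black), and each obese array minus the lean mean (orange symbols). Angptl4 is the one member whose interval (0.013 to 0.92) leaves out 0 before adjustment, and obese 42 lies to the left of 0 for Lep (-0.21) and to the right for Lcn2 (0.56).

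The receptors and binding partners of the members were measured by 18 genes. Of these 9 were higher and 9 lower, with a median difference of 0.038 against 0.016 over all 14217 genes taken by their brightest probe set, and 0 passed limma's adjusted test, as did 0.00703% of all genes. At an unadjusted p under 0.05 there was 1 higher and 1 lower gene, against 7.2% and 6.13% of all genes (13.3% either way). The groups did not overlap for 2 higher and 0 lower receptor genes, against 12.2% and 8.18% of all genes (20.4% either way), and 53.7% of all genes were higher. The leptin receptor Lepr was the lower one. It read 6.34, 6.15 and 5.96 on lean 14, 18 and 19 and 5.52, 5.19 and 6.04 on obese 29, 32 and 42, so the obese rats with high Lep were those with the lowest Lepr. The difference was -0.57 (SE 0.22, limma adjusted p = 0.394). Of the 6 dimmer Lepr probe sets 4 were also lower and 2 higher, with differences from -0.49 to 0.12. The mean of 6 arrays was 3.70 to 5.53 for these, below the array medians (5.63 to 5.68).

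Adiponectin receptor 2 (Adipor2), which couples to fatty acid oxidation in liver and fat, gave larger differences on its dimmer probe sets than on its brightest. The brightest read 8.70, 8.78 and 8.62 in lean and 8.93, 9.39 and 8.51 in obese rats, a difference of 0.25 (SE 0.21, limma adjusted p = 0.661). One dimmer probe set read 5.41, 5.57 and 5.37 in lean and 6.09, 6.39 and 5.98 in obese rats, a difference of 0.70 (SE 0.13, adjusted p = 0.183). Another read 5.73, 5.88 and 5.62 in lean and 6.27, 6.74 and 6.14 in obese rats, a difference of 0.64 (SE 0.16, adjusted p = 0.291). All 3 probe sets were highest on obese 32. On the dimmer ones every obese array lay above every lean array, but none passed. Adipor1 differed by 0.096 (SE 0.085), and T-cadherin (Cdh13), which binds the large adiponectin complexes on vessels, by -0.051 (SE 0.25) with the lowest value on obese 29 (7.80).

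For the other members' receptors, the chemerin receptor Cmklr1 differed by -0.086 (SE 0.13), the retinol transporter Stra6 by -0.0100 (SE 0.18) and the apelin receptor Aplnr by -0.014 (SE 0.37). Their adjusted p-values in limma were 0.822, 0.988 and 0.991. Dimmer Stra6 probe sets disagreed, with differences from -0.32 to 0.23. The highest of these did not overlap, at 4.80 to 4.98 in obese and 4.58 to 4.69 in lean rats. Dimmer Cmklr1 probe sets differed by -0.18 and -0.35. Aplnr was lowest on obese 29 (6.60) and highest on obese 42 (7.98), as were Lcn2 and the mean of the endothelial markers, while a dimmer Aplnr probe set was lowest on obese 29 (5.31) and highest on lean 18 (6.26). The lipocalin receptor Slc22a17 read 7.92, 8.05 and 7.98 in lean and 8.32, 8.17 and 8.14 in obese rats, a difference of 0.22 (SE 0.089, adjusted p = 0.408) without overlap. Lipoprotein lipase (Lpl), the enzyme that Angptl4 inhibits, read 12.92, 13.10 and 13.08 in lean and 13.29, 13.40 and 13.11 in obese rats. It differed by 0.23 (SE 0.11, adjusted p = 0.447), with obese 42 only just above lean 18, and Lpl is also one of the 14 adipocyte markers. Tlr4, a lipopolysaccharide receptor, differed by -0.36 (SE 0.23, adjusted p = 0.571) through obese 42 (6.47, against 7.24 to 7.59).

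**Figure D5:**
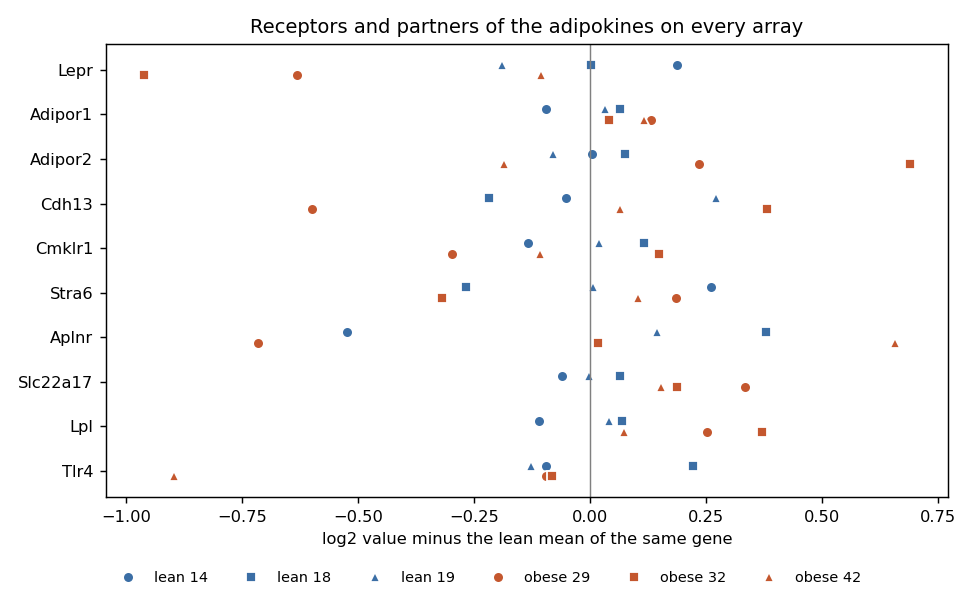
Log2 value of each receptor or partner minus the lean mean of the same gene (x axis), 1 symbol per array, blue for lean and orange for obese rats. Lepr is lowest on obese 29 and 32 (5.52 and 5.19), and Slc22a17 and Lpl have every obese array above every lean array.

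Of 12 measured genes of leptin receptor signalling 5 were higher and 7 lower, with a median of -0.045. An unadjusted p under 0.05 was reached by 0 of them, against 13.3% of all genes. Stat3, the transcription factor that leptin activates, read 8.97, 9.27 and 9.17 in lean and 7.03, 8.72 and 8.93 in obese rats. The obese arrays were all lower, obese 29 by far the most, and the difference was -0.91 (SE 0.46, limma adjusted p = 0.479). A dimmer Stat3 probe set differed by -0.32 and put obese 29 at 8.23, beside obese 32 at 8.20, but obese 42 at 8.82, among the lean values of 8.62 to 8.83. Ptpn2, a phosphatase of the pathway, differed by -0.17 (SE 0.089), Jak2, the kinase bound to the receptor, by -0.32 (SE 0.16) and Stat5b by -0.32 (SE 0.16). Their adjusted p-values were 0.486, 0.468 and 0.475.

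Of 12 genes of adiponectin assembly and action, 8 were higher and 4 lower (median 0.069). At an unadjusted p under 0.05 there were 0, against 13.3% of all genes. The endoplasmic reticulum chaperone Pdia4 read 9.52, 9.64 and 9.41 in lean and 9.53, 8.93 and 8.98 in obese rats, a difference of -0.38 (SE 0.17, limma adjusted p = 0.439). The AMP kinase subunits Prkag1, Prkab1 and Prkaa1 differed by 0.17, -0.20 and 0.12, but a dimmer Prkaa1 probe set differed by -0.37 (SE 0.18) and another by 0.032. Of 15 genes that make or use NAD, 10 were higher (median 0.038). At an unadjusted p under 0.05, 2 were higher and 0 lower, against 7.2% and 6.13% of all genes. The 2 higher genes were Nnmt, which methylates the Nampt substrate nicotinamide (0.21, SE 0.089), and the NAD-dependent deacylase Sirt6 (0.21, SE 0.082). Neither passed (limma adjusted p = 0.421 and 0.406). Nmnat3, which works directly after Nampt, differed by -0.24 (SE 0.14) and Nmrk2 by 0.17 (SE 0.11).

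Rbp4 supplies the pathway of retinoid handling, in which retinol is stored as ester or oxidised to retinoic acid. Of 18 of its genes 11 were higher (median 0.070). At an unadjusted p under 0.05 it had 1 higher and 2 lower, against 7.2% and 6.13% of all genes. The retinoic acid receptor Rarb read 7.21, 7.09 and 6.69 in lean and 6.51, 6.33 and 6.68 in obese rats, a difference of -0.49 (SE 0.16, limma adjusted p = 0.346) without overlap. Lrat, which stores retinol as ester, read 7.27, 6.71 and 6.45 in lean and 6.0, 5.20 and 6.57 in obese rats. Its difference was -0.89 (SE 0.35, adjusted p = 0.409), with obese 32 lowest, as for Rarb, but obese 42 among the lean arrays. The retinal reductase Rdh11 ran the other way, with 7.57, 7.53 and 7.37 in lean and 8.0, 8.48 and 7.55 in obese rats (0.52, SE 0.22, adjusted p = 0.418). Rdh16 differed by 0.18 (SE 0.079).

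Among 11 genes of lipoprotein lipase and its partners, 8 were higher (median 0.11). Against 7.2% of all genes higher and 6.13% lower at an unadjusted p under 0.05, there were 0 lower genes and 1 higher gene. That gene was the very low density lipoprotein receptor Vldlr, with 7.89, 7.96 and 7.91 in lean and 8.35, 8.82 and 8.04 in obese rats (0.48, SE 0.19, limma adjusted p = 0.398). Its 3 dimmer probe sets were higher by 0.34 to 0.57. Angptl8, which works with other family members against the lipase after feeding, was higher by 0.55 (SE 0.30, adjusted p = 0.508), and lean 18 at 9.42 lay close to obese 29 at 9.50 and obese 32 at 9.53. Apolipoprotein E (Apoe), made by macrophages as well as adipocytes, differed by -0.55 (SE 0.24, adjusted p = 0.427). Of 6 other angiopoietin-like, angiopoietin and apelin-processing genes, Angptl8 among them again, 3 were higher and 3 lower (median 0.017). Of these 0 had an unadjusted p under 0.05, against 13.3% of all genes. Angptl6 differed by 0.20 (SE 0.091), Furin by 0.12 (SE 0.13) and the vessel factor Angpt2 by -0.33 (SE 0.25).

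Other adipokines were measured by 25 genes, 10 of them higher and 15 lower, with a median of -0.054. An unadjusted p under 0.05 was reached by 6 higher and 1 lower gene, against 7.2% and 6.13% of all genes. Of the 25 genes 0 passed limma's adjusted test. Npr3, 1 of these 6 higher genes, is a receptor that clears natriuretic peptides and answers to osteocrin, and not itself a secreted adipokine. It read 8.10, 7.54 and 7.73 in lean and 8.76, 8.97 and 8.03 in obese rats. The difference of 0.79 (SE 0.26, limma adjusted p = 0.347) again was smallest on obese 42. Progranulin (Grn) read 11.27, 11.35 and 11.17 in lean and 11.16, 10.95 and 10.95 in obese rats (-0.24, SE 0.10, adjusted p = 0.415). Grn and Apoe are abundant in macrophages, whose 8 markers all had a lower group mean in obese rats. Their mean per array was 8.39 to 9.45 in obese and 9.22 to 9.77 in lean rats. Of the 8, 1 was lower at an unadjusted p under 0.05, against 6.13% of all genes, and 1 without overlap, against 8.18%. The part of these cells in the Grn and Apoe values was not tested. Fgf21 and Tnf were higher by 0.43 (SE 0.13) and 0.28 (SE 0.081), with adjusted p-values of 0.331 and 0.313, but a dimmer Tnf probe set differed by -0.19. Both read below the array medians, at 4.81 to 5.57 and 5.07 to 5.45.

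Of 11 C1q/TNF-related proteins, the family to which adiponectin belongs, 8 were higher (median 0.18). An unadjusted p under 0.05 was reached by 2 of these 8, against 7.2% of all genes higher. C1qtnf6 read 6.37, 6.64 and 6.41 in lean and 6.83, 7.31 and 6.73 in obese rats (0.48, SE 0.16, limma adjusted p = 0.355). C1qtnf4, C1ql1 and C1qtnf12 differed by 0.26 (SE 0.099), 0.28 (SE 0.13) and 0.19 (SE 0.092) at levels of 4.27 to 5.61, below the array medians. Of 8 other lipocalins 7 were higher (median 0.083), with Orm1 at 0.24 (SE 0.076, adjusted p = 0.341), C8g at 0.19, Obp2b at 0.16 and Ambp at 0.099. Orm1, Obp2b and Ambp read at 3.83 to 4.90. Among the 7761 dimmest probe sets 68.0% of differences were above 0, with a median of 0.050, against 54.7% and 0.020 over all, and the lower quartile of each obese array (4.46 to 4.49) lay above that of each lean array (4.41 to 4.44). The part of this shift in the small positive differences of dim lipocalin and C1q genes was not tested.

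Of 20 transcription factors with a known role at adipokine promoters, 13 were higher (median 0.073). Against 7.2% of all genes higher at an unadjusted p under 0.05, there was 1 here. That was Cebpb, which acts early in adipocyte formation, with 9.15, 9.51 and 9.40 in lean and 9.75, 9.55 and 9.73 in obese rats (0.32, SE 0.12, limma adjusted p = 0.381). Cebpa, whose product activates the Lep promoter through a C/EBP site, read 9.73, 10.05 and 9.60 in lean and 10.01, 10.04 and 10.17 in obese rats. Its difference was 0.28 (SE 0.13, adjusted p = 0.450), and it was highest on obese 42, where Lep was low. Cebpa is itself among the 14 adipocyte markers. The 4 dimmer Cebpa probe sets were higher by 0.26 to 0.59. The probe set with the smallest of these differences was highest on lean 18 (7.67), with obese 42 at 7.46, and the others were highest on obese 42. Klf15 differed by 0.28 (SE 0.14) and Cebpd by -0.31 (SE 0.17).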

How the data were processed

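The deposited values are log2 expression levels per probe set on 6 single arrays, made by the authors. The submitters' processing notes name RMA and affy, while versions, chip definition and the arrays that shared one normalization are not given in the sources here. RMA normalizes between arrays and fits each probe set over the arrays run together, which can shrink differences of the brightest and dimmest probe sets, and its log2 differences are given as fold by raising 2 to them. The number of arrays limits the precision.

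Of 31099 probe sets 57 controls were left out. The platform annotation gave 1 symbol for 20826, several for 436 and none for 9780. All 10 member probe sets matched the GRCr8 RefSeq gene table by gene ID with the same symbol, and 7 members had a promoter entry (Nampt: none used).

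The group contrast was fitted by limma 3.58.1 (R 4.3.3; lmFit and eBayes, two-sided, no covariate, no filter), with Benjamini-Hochberg adjustment over all 31042 probe sets and a call at an adjusted p under 0.05. The test was checked on simulated data. Groups do not overlap when every obese array lies on one side of every lean array. Related genes were taken by the probe set with the highest mean, and up to 4 genes of each list were named, those with the smallest p, plus each member's known receptor or target. Of the 18 genes named here with dimmer probe sets, 31 of 40 such probe sets had the sign of the brightest one. The genes of like pattern were named by the 4 smallest root mean square differences. Lists and members were chosen with earlier results of these data known, and lists are described by counts and medians alone.

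Alternatives were the brightest probe set or the mean per gene, median centring, quantile normalization, a level filter, an intensity trend, array weights, leaving out arrays, and the acinar level or the 3'-5' difference of the RNA controls as a covariate; the adipocyte and macrophage marker covariates were added after seeing the data. Python 3.11.15, with pandas 2.3.3 for tables and matplotlib 3.10.9 for plots, did the rest.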

Additional observations from a re-analysis of the deposited data

How the results depend on the processing

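In each of the 18 alternatives 0 member probe sets passed limma's adjusted test, as with the settings of the report. The lowest adjusted p of a member was the 0.0518 of Lep without obese 42. Lep, Adipoq, Rarres2 and the brighter probe sets of Nampt and Apln kept their sign in all 18. Over these Lep ran from 0.60 to 1.83, Adipoq from 0.0089 to 0.24 and Rarres2 from 0.12 to 0.24. With 1 array left out Lcn2 ran from -0.69 to 0.17, turning without obese 29, and the dimmer Apln probe set from -0.056 to 0.19, turning without obese 42. The latter also turned with lean 14 and obese 42 left out (-0.023), and with the 3'-5' difference (-0.0084) or the macrophage markers (-0.13) as a covariate. The dimmer Nampt probe set turned with lean 14 and obese 42 left out (0.0035) and with the macrophage covariate (0.049). With the adipocyte covariate Rbp4 (-0.16) and Angptl4 (-0.20) turned, in a fit that cannot tell the group and the adipocyte level apart. Median centring and quantile normalization turned 0 members.

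Over all probe sets 3 were called. The count was 1 with the brightest probe set per gene (fewer were tested), with lean 14 and obese 42 both left out, and with the acinar level, the 3'-5' difference, the adipocyte markers or the macrophage markers as a covariate. Leaving out 1 array gave 1 to 31, the 31 without obese 42, 1 without lean 14 and 1 without lean 18. Where the cause is not named it was not tested. The RNA control difference ran from 0.017 to 0.21 with 1 array left out. No paired analysis was possible because the groups share no replicate numbers. With 3 rats a group the Lep interval runs from -0.13 to 2.09. The files used here hold no signal over background.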

Other observations

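Obese 32 was the highest array for 5 of the 10 adipokine probe sets and the lowest for 0, while lean 14 and obese 29 were each the lowest for 3. Obese 42 was the highest for 2, Lcn2 and the dimmer Apln probe set, and the lowest for 2, both of Nampt.

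Of 9392 genes above the median level, those nearest to the small and even adiponectin pattern by root mean square difference were Ext1 (0.020), a heparan sulfate polymerase, Faf2 (0.021), which serves protein degradation at the endoplasmic reticulum and lipid droplets, Glrx3 (0.024), an iron-sulfur glutaredoxin, and Gosr1 (0.029), a Golgi SNARE. Their differences were 0.22, 0.21, 0.19 and 0.23. The genes nearest to the brighter Apln probe set were Gtf2h4 (0.048), Dis3l (0.048), Dph5 (0.055) and Pik3r3 (0.059), with 7412 genes compared. These 4 were lowest on obese 29 or obese 42, with differences of -0.21, -0.20, -0.15 and -0.18.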
